A study of Saccharomyces cerevisiae with 11 samples.

Results

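The library held 5 control peptides taken from animal and plant activators: EKLF TAD1, KLF4, hHSF1 AD1, ESX and plantHSFA2. They were chosen from the names that the deposited count table gives its wild-type controls, with no use of any count. Each peptide has 20 residues and was entered 4 times under different 20-base tags, which gives 20 entries of the 12400 in the table. The 4 entries of a peptide share their amino acids, so they are not independent peptides. The remaining 76 entries named as wild-type controls, and 153 entries whose first codon is a stop, were counted in the same libraries and serve here as the values beside which the 5 peptides are read.

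The library was grown in the Saccharomyces cerevisiae strain Y2H Gold and read by DNA sequencing. Untreated cultures were sampled at 0, 12 and 24 h, and cultures with aureobasidin at the labels' doses 150 and 200 were sampled at 12, 24, 48 and 72 h; no untreated culture later than 24 h was analysed here. Because the unit of the dose differs between fields of the labels, doses are given as plain numbers. Every sample carried 5 barcodes, added to the designed pool by PCR before cloning and called biological replicates in the series text. Nothing says that they came from separate cultures, so the spread and the p-values below measure the difference between barcoded sub-libraries, with 5 libraries in each of the 11 groups and 683589 to 3392656 reads per library.

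Activation domains are stretches of transcription factors that recruit coactivators such as Mediator, and many are short, acidic and rich in aromatic and leucine residues. Aureobasidin is an antifungal compound that blocks sphingolipid synthesis, and Y2H Gold carries a resistance gene whose expression depends on an activator at its promoter. A growing share of reads under the compound is therefore the readout of this assay, although reads measure relative abundance and say nothing of how much a culture grew. EKLF, also called KLF1, activates the adult beta-globin gene in erythroid cells. KLF4 is a related zinc-finger factor of epithelia and a reprogramming factor. HSF1 is the main regulator of the heat shock response in animals, HSFA2 is a heat stress factor of plants, and ESX, also called ELF3, is an Ets factor of epithelial cells.

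The tags below are how the reads of 1 peptide were split into entries. Those of plantHSFA2 and KLF4 are shown because the later results turn on single entries of the former and on the joint movement of all entries of the latter. Capitals mark the bases that differ from the most similar other tag of 20 bases. For plantHSFA2 entry 3 and KLF4 entries 2 and 4 several tags were equally near, and 1 of them was used.
plantHSFA2 entry 1: agAtgctCCTtGccCaagca
plantHSFA2 entry 2: tattCCccAcGAcagGgcTt
plantHSFA2 entry 3: atAtagatGGagTgCAaAcc
plantHSFA2 entry 4: TctttttattgaGgTGGcGg
KLF4 entry 1: ggcagaTcGCgaCTtaTccA
KLF4 entry 2: TCGtgactgtGTgccagCcT
KLF4 entry 3: GttAGATcgacgTaaAttgg
KLF4 entry 4: GgagGtaTtaaTagTccgCt
Tags were compared among the 12243 entries whose tag has 20 bases, and tags of other lengths were not compared. Each of the 20 tags differed from every other of these at 6 bases or more, with the most similar tag 6 or 7 bases away. The DNA that codes for the peptides was not used here.

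The 5 peptides were all acidic on balance but differed in what accompanied the acid. plantHSFA2 had the most negative net charge, -6, from 6 acidic residues and no lysine or arginine, with 1 tryptophan and 5 aliphatic residues (isoleucine, leucine, methionine or valine). KLF4 had a net charge of -4 from 4 acidic residues, also with no lysine or arginine, and carried 2 phenylalanines, no tryptophan and 4 leucines among 5 aliphatic residues. EKLF TAD1 was the aromatic member, with 2 tryptophans and 2 phenylalanines, 1 aliphatic residue, 5 acidic and 2 basic residues and a net charge of -3. ESX had the same net charge from 5 acidic and 2 basic residues, with 1 tryptophan and 5 aliphatic residues. hHSF1 was the least acidic, with 2 acidic residues, no basic residue and a net charge of -2, and it held 2 phenylalanines, 6 aliphatic residues and 6 serines or threonines.

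The 5 peptides differed from most of the library in several residue classes. Over 12141 distinct peptides of 20 residues, without those that start with a stop, the median was 3 acidic, 2 aromatic, 0 aliphatic and 10 glycine residues. Their median net charge was -2. Of those peptides, 3.34% had 5 or more aliphatic residues and 2.47% had 6 or more, while 37.5% had 4 or more aromatic residues and 25.7% at least the 1 aliphatic residue of EKLF TAD1. The 6 serines or threonines of hHSF1 were reached by 0.189% of the distinct peptides, and the 3 glutamates of ESX and plantHSFA2 by 2.82%. EKLF TAD1 and hHSF1 were low in glycine, with 1 residue each, a number that 99.95% of the distinct peptides reached. The peptides were padded at the front with glycine to reach 20 residues: plantHSFA2 and KLF4 began with 6 glycines, ESX with 5, EKLF TAD1 with 1 and hHSF1 with none.

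At 0 h the 5 peptides together took 0.202% ± 0.0521 (SD, n = 5) of a library's reads, against 0.678% ± 0.105 for the other wild-type controls. plantHSFA2 and KLF4 were the most abundant, at 0.0711% ± 0.0374 and 0.0687% ± 0.0408, and their ranges over the barcodes overlapped. EKLF TAD1 followed at 0.0358% ± 0.0125 and hHSF1 at 0.0195% ± 0.00347, with overlapping ranges. ESX was lowest at 0.00742% ± 0.00139, and its highest library, 0.0086%, lay below the lowest library of every other peptide. Entries of a peptide started unequal: the best-read entry held 55.7% of the plantHSFA2 reads, 51.8% of the KLF4 reads and 34.5% to 35.6% of the reads of the remaining peptides. The least-read entries were ESX entry 2, with 78 reads over the 5 libraries, and ESX entry 4, with 92.

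Without the compound the peptides separated within 24 h. Both hHSF1 and ESX lost most of their share, EKLF TAD1 and plantHSFA2 stayed near their starting share, and KLF4 took a larger share in every barcode. The hHSF1 share was 0.017%, 0.0234%, 0.0153%, 0.019% and 0.0225% in barcodes 1 to 5 at 0 h, and 0.00269%, 0.00294%, 0.00487%, 0.00181% and 0.00731% at 24 h. The groups did not overlap, and the mean was 4.96 times lower. At 12 h the mean already stood at 0.00383% ± 0.00192.

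ESX had 120, 122, 109, 100 and 106 reads in the 5 barcodes at 0 h and 30, 26, 6, 1 and 21 reads at 24 h. Its mean share fell 7.78 times, to 0.000954% ± 0.000742, and the barcodes spread widely: barcode 4 kept 0.00898 of its 0 h share and barcode 1 kept 0.213. None of the 5 libraries reached its range at 0 h. The entries that start with a stop codon fell 13.9 times in the same libraries, from 0.400% ± 0.0264 to 0.0287% ± 0.00676, and in each barcode they kept 0.0576 to 0.0905 of their 0 h share. The range of ESX spans these values. In 5 of 5 barcodes hHSF1 kept more than the stop-first entries did, 0.0949 to 0.324 of its 0 h share.

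KLF4 moved the other way. Its share was 0.0988%, 0.045%, 0.125%, 0.0371% and 0.0374% in barcodes 1 to 5 at 0 h and 0.14%, 0.0632%, 0.197%, 0.0698% and 0.0577% at 24 h. The groups overlap because the barcodes started far apart, but each barcode gained, by 1.41, 1.4, 1.57, 1.88 and 1.54-fold. Its 4 entries had 1.69, 1.36, 1.41 and 1.52 times their 0 h share when reads were summed over barcodes. Of the 19 combinations of a KLF4 entry and a barcode with at least 20 reads at 0 h, 19 were above their starting share, with a median of 1.43 times. At the intermediate time of 12 h, 18 of the 19 were above it. Over the whole library 17.2% of 37360 such combinations were above their 0 h share at 24 h and 21.2% at 12 h.

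By edgeR's quasi-likelihood test on reads summed per peptide, with Benjamini-Hochberg adjustment over 8916 peptides, 2 of the 5 peptides passed the threshold of 0.05 at 24 h against 0 h. Both were lower, where 27.0% of all tested peptides were called lower and 0 higher. The log2 change was -2.31 (SE 0.764) for hHSF1, adjusted p = 0.0328, and -2.95 (SE 0.971) for ESX, adjusted p = 0.032. KLF4 changed by 0.62 (SE 0.693), adjusted p = 0.556, in this fit, which does not use the barcode number. With the barcode as a block, KLF4 was higher by 0.63 (SE 0.0746), adjusted p = 3.02e-09, and plantHSFA2 lower by -0.31 (SE 0.0784), adjusted p = 0.000523, so that 4 peptides passed. Of all 8916 peptides tested, the block called 805 higher and 6670 lower. EKLF TAD1 changed by -0.13 (SE 0.668), adjusted p = 0.917, and by -0.12 (SE 0.0957), adjusted p = 0.244, with the block.

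Over single entries 18 of the 20 passed the minimum mean of 10 reads, and ESX entries 2 and 4 did not. Of the 18, 2 were called lower, both of hHSF1, beside 26.7% of 9000 entries tested. With the block 3 were called higher and 8 lower, beside 821 higher and 6714 lower of the 9000. The median log2 change of the 18 was -0.26, against -1.87 over all entries tested. The direction of the peptides near 0 depends on the scaling: EKLF TAD1 and plantHSFA2 were positive, at 1.13 and 0.96, with edgeR's TMM factors, which moved the median of all peptides from -1.88 to -0.61. Neither hHSF1 nor ESX passed with TMM factors, with adjusted p = 0.366 and 0.25, or with DESeq2, with adjusted p = 0.171 and 0.085. Both calls are near the threshold: that of ESX was lost when any of the 5 barcodes was left out, with adjusted p from 0.0579 to 0.0776, and that of hHSF1 without barcode 1, 2, 3 or 4, with adjusted p from 0.061 to 0.0806. KLF4 was the peptide called by DESeq2, higher by 1.74, adjusted p = 0.0499. Over all 8916 peptides DESeq2 called 105 higher and 1530 lower, and its scaling put the median log2 change at -0.75.

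At 24 h with the compound, the plantHSFA2 share was above that of the untreated culture in every barcode at both doses. At dose 150 its share was 0.125%, 0.16%, 0.0726%, 0.117% and 0.0354% in barcodes 1 to 5, against 0.0564%, 0.122%, 0.0396%, 0.0585% and 0.0215% in the untreated libraries of the same time. At dose 200 the values were 0.141%, 0.184%, 0.0674%, 0.117% and 0.0247%. The groups overlap, because the barcodes started far apart. The log2 change was 0.77 (SE 0.755), adjusted p = 0.451, at dose 150 and 0.84 (SE 0.766), adjusted p = 0.496, at dose 200. With the barcode as a block these were 0.83 (SE 0.139), adjusted p = 0.000734, and 0.78 (SE 0.157), adjusted p = 0.0012. The other wild-type controls together also took a larger share at 24 h with the compound. They stood at 1.11% ± 0.104 at dose 150 and 1.2% ± 0.0963 at dose 200, against 0.777% ± 0.162 untreated.

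Of the 16 combinations of a plantHSFA2 entry and a barcode with at least 20 reads at 0 h, 13 were above their 0 h share at 24 h and dose 150, and 12 at dose 200, against 3 in the untreated culture. Among the other wild-type controls 63 of 257 such combinations were above it at dose 150, 71 at dose 200 and 64 untreated. Over the whole library 15.4%, 16.4% and 17.2% of 37360 were, in the same order. The log2 changes of the 4 plantHSFA2 entries against untreated lay between 0.61 and 0.96 at dose 150 and between 0.5 and 1.49 at dose 200. None passed the threshold in the fit without the block. With the block entries 1, 2 and 4 were positive at both doses, and entry 3, whose reads lay almost entirely in barcode 4, was -0.62 (SE 1.21), adjusted p = 0.651, at dose 150 and -0.48 (SE 1.36), adjusted p = 0.772, at dose 200.

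None of the other 4 peptides was called higher. KLF4 changed by -0.77 (SE 0.741) at dose 150 and -0.95 (SE 0.734) at dose 200 on the log2 scale, with adjusted p = 0.446 and 0.426, and with the block by -0.74, adjusted p = 0.000584, and -0.91, adjusted p = 5.4e-05. EKLF TAD1 changed by -0.32 (SE 0.809), adjusted p = 0.783, and -0.59 (SE 0.777), adjusted p = 0.64, and was called lower at dose 200 with the block, by -0.62, adjusted p = 0.0181. In barcode 4 at dose 150 EKLF TAD1 stood at 0.00514%, against 0.0276% to 0.0367% in the others.

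The low-share pair parted between the doses. hHSF1 had 1, 0, 4, 0 and 7 reads at dose 150, against 50, 49, 125, 24 and 119 in the untreated libraries and 54, 53, 36, 12 and 39 at dose 200. The groups differ in depth, with 5003540 reads in all at dose 150, 4857852 at dose 200 and 9048277 untreated. As a mean share hHSF1 stood at 0.000233% at dose 150, 0.00397% at dose 200 and 0.00392% untreated. It was lower at dose 150 by -4.01 (SE 1.44), adjusted p = 0.031, and changed by 0.02 (SE 1.05), adjusted p = 0.993, at dose 200. The call at dose 150 was lost without barcode 1, 2, 3 or 4, with adjusted p from 0.0553 to 0.0878. ESX had 0 reads in all 5 libraries at dose 150, which puts the share at least 120 times below that at 0 h when 3 reads over the group are taken as the floor. Against the untreated libraries the bound is much smaller, since their mean share was already 7.78 times below 0 h. The floor is 0.6 per 1000000 reads, and the untreated mean was 9.54. At dose 200 ESX had 10, 0, 6, 0 and 19 reads, and its log2 change against untreated was -0.39 (SE 1.49), adjusted p = 0.882. The stop-first entries stood at 0.00145% ± 0.00147 at dose 150 and 0.0558% ± 0.0139 at dose 200, against 0.0287% untreated. Both contrasts use the same untreated libraries.

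In all, 1 of 4 tested peptides was called lower at dose 150, where 38.0% of 4369 were, and 0 of 5 at dose 200, where 7.94% of 4650 were. None was called higher, as was none of all peptides tested. With the block the counts were 1 higher and 2 lower at each dose. Over all peptides the block called 835 higher and 2558 lower of 4369 at dose 150. At dose 200 it called 772 higher and 1629 lower of 4650. No peptide passed at an unadjusted p of 0.05 at dose 200, and none did by DESeq2. Of the entries, 0 of 14 and 0 of 15 were called, beside 37.7% and 8.07% of all entries lower. At an unadjusted p of 0.05, 2 entries were lower at dose 150 and 0 at dose 200, and DESeq2 called 2 of 13 and 0 of 14 with a p-value. With the block 2 entries were higher at each dose, with 4 lower at dose 150 and 2 at dose 200. Over all entries the block called 846 higher and 2572 lower of 4416 at dose 150. At dose 200 it called 787 higher and 1640 lower of 4695.

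By 72 h 4 of the 5 peptides had lost nearly all of their share at both doses, and plantHSFA2 had not. At dose 150 EKLF TAD1 and KLF4 stood apart from hHSF1 and ESX. EKLF TAD1 fell 23.2 times, from 0.0358% to 0.00154% ± 0.000689, and KLF4 21.4 times, from 0.0687% to 0.00321% ± 0.00152. In single barcodes EKLF TAD1 kept 0.0293, 0.0387, 0.0481, 0.0458 and 0.0519 of its 0 h share. KLF4 kept 0.0414, 0.0388, 0.0424, 0.0825 and 0.0489, so these peptides overlap. hHSF1 kept 0 reads in barcodes 1, 2 and 4, 4 reads in barcode 3 and 6 in barcode 5, and its summed share was 189 times lower, with an exact binomial 95% interval of 103 to 396 times. No ESX read was found in any library at 24, 48 or 72 h, which at 72 h puts the share at least 238 times below that at 0 h by the 3-read floor, and at least 193 times by the exact interval used for hHSF1. In every barcode EKLF TAD1 and KLF4 kept a larger part of their share than hHSF1 and ESX did. The stop-first entries, more deeply read at 0 h, were also unread at 72 h, at least 13210 times below 0 h by the same floor.

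At dose 200 the same 4 peptides lay closer together. EKLF TAD1 fell 71.3 times, to 0.000502% ± 0.000309, KLF4 51.3 times, to 0.00134% ± 0.000572, hHSF1 57.5 times, to 0.000339% ± 9.27e-05, and ESX 90.1 times. The reads left in barcodes 1 to 5 were 11, 16, 31, 1 and 13 for EKLF TAD1 and 41, 26, 78, 14 and 25 for KLF4. For hHSF1 they were 6, 8, 12, 6 and 10, and for ESX 2, 3, 2, 0 and 4. The part of the 0 h share kept in a barcode ran from 0.00454 to 0.0213 for EKLF TAD1, 0.0145 to 0.0294 for KLF4, 0.0122 to 0.0231 for hHSF1 and 0 to 0.0236 for ESX. These ranges overlap each other and that of the stop-first entries, 0.00767 to 0.016, which fell 93.6 times on average. Within barcodes, KLF4 and hHSF1 each kept more than the stop-first entries in 5 of 5 barcodes, and EKLF TAD1 and ESX in 4 of 5, barcode 4 being the exception for both. The intervals of the summed falls, which cover counting error only, were 52.1 to 84.4 times for EKLF TAD1, 45.4 to 61.3 for KLF4, 42.8 to 80.9 for hHSF1 and 46.4 to 169 for ESX. The stop-first entries had an interval of 91.2 to 109 times, above those of the former 3 peptides and within that of ESX.

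The intermediate times show when the loss came. At 12 h with the compound EKLF TAD1 stood at 0.0283% at dose 150 and 0.0299% at dose 200, and KLF4 at 0.0726% and 0.0844%, all within the range of the 0 h libraries. Set against its own barcode, EKLF TAD1 was below its 0 h share in 5 of 5 barcodes at each dose, and KLF4 was above it in 4 of 5 at dose 150 and in 5 of 5 at dose 200. In the untreated culture of that time EKLF TAD1 was below in 5 of 5 and KLF4 above in 5 of 5. By 48 h EKLF TAD1 had fallen 6.16 and 8.3 times and KLF4 4.47 and 5.43 times, in 5 of 5 barcodes at each dose. hHSF1 was 10.6 times below its 0 h share at 12 h and dose 150 and 5.77 times below at dose 200, where the untreated culture of that time was 5.09 times below. ESX was 18.3 and 8.3 times below at 12 h, against 4.49 times untreated.

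All 4 of these peptides passed the test against 0 h at both doses. At dose 150 the log2 changes were -4.53 (SE 0.801) for EKLF TAD1, adjusted p = 2.28e-05, -4.42 (SE 0.801) for KLF4, adjusted p = 2.95e-05, and -7.54 (SE 1.16) for hHSF1, adjusted p = 6.74e-06. For ESX, adjusted p was 4.05e-06 and the bound above stands in for its change. At dose 200 they were -6.12 (SE 1.02), adjusted p = 4.02e-07, for EKLF TAD1 and -5.67 (SE 0.962), adjusted p = 5.08e-07, for KLF4. hHSF1 changed by -5.83 (SE 1.01), adjusted p = 7.5e-07, and ESX by -6.36 (SE 1.09), adjusted p = 5.75e-07. These falls are what most of the library did: 88.7% of 8624 peptides were called lower at dose 150 and 91.3% of 8676 at dose 200, with 1.95% and 1.83% called higher. With TMM factors at dose 200 the 4 changes were -1.26 for EKLF TAD1, -0.85 for KLF4, -1.13 for hHSF1 and -1.65 for ESX, and none passed, with the median of all peptides moved from -6.65 to -2.22. Compound and time cannot be told apart here, since the comparison is with 0 h.

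Over entries, 17 of 18 tested were called lower at each dose, beside 88.6% of 8703 entries at dose 150 and 91.2% of 8755 at dose 200. None was called higher, beside 1.96% and 1.88% of all entries tested. At dose 150 the 4 log2 changes of EKLF TAD1 lay between -4.78 and -4.21 and those of KLF4 between -4.61 and -4.26. At dose 200 they lay between -6.64 and -5.62 and between -6.22 and -4.95. The entries of plantHSFA2 were spread more widely, from -3.78 to 0.45 at dose 150 and from -3.8 to 0.59 at dose 200. Those of hHSF1 lay between -9.92 and -6.5 at dose 150, where 2 of its entries were unread in the treated group, and between -6.31 and -4.9 at dose 200. The median of the 18 was -4.54 at dose 150 and -5.63 at dose 200, against -8.4 and -6.65 over all entries tested. The median of the 5 peptides was -4.53 and -5.83, against -8.41 and -6.65 over all peptides. At dose 150 ESX and, among the 18 entries, ESX entries 1 and 3 and hHSF1 entries 1 and 3 had no read in the treated group, so their fitted values depend on the prior count. Set to their bounds by the 3-read floor, they leave the medians at -4.54 and -4.53. The medians over the library were not recomputed in this way. Of 37360 library combinations of an entry and a barcode with at least 20 reads at 0 h, 74.7% were unread at dose 150 and 41.4% at dose 200. At dose 150 the stop-first entries, with no read, had a fitted median of -8.45. The library medians thus also depend on the prior count and on depth at 0 h, and the gap to the members has no fixed size.

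plantHSFA2 ended at 0.0613% ± 0.0835 at dose 150 and 0.0643% ± 0.104 at dose 200, close to its 0 h mean but with a spread larger than the mean. Its 0 h shares in barcodes 1 to 5 were 0.0669%, 0.13%, 0.0556%, 0.0747% and 0.0282%. At 72 h they were 0.209%, 0.0404%, 0.0183%, 0.0275% and 0.0109% at dose 150, and 0.25%, 0.0238%, 0.0154%, 0.0218% and 0.0101% at dose 200. Barcode 1 rose 3.13-fold and 3.74-fold. The other 4 barcodes kept 0.31 to 0.388 of their 0 h share at dose 150 and 0.183 to 0.359 at dose 200. Those 4 barcodes still kept more than any barcode of the 4 lost peptides, whose highest value was 0.0825 at dose 150 and 0.0294 at dose 200. That difference between peptides was not tested. At 72 h the other wild-type controls together stood at 1.11% ± 0.098 at dose 150 and 0.966% ± 0.0931 at dose 200, against 0.678% ± 0.105 at 0 h.

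The rise in barcode 1 lay in a single entry. plantHSFA2 entry 2 had 829 reads in barcode 1 at 0 h, 1234 at 12 h and 880 at 24 h without the compound. At dose 150 it had 1284, 1182, 2923 and 4462 reads at 12, 24, 48 and 72 h, and at dose 200 it had 928, 1273, 3511 and 7125. In CPM, the reads of an entry scaled to a fixed library size of 1000000 reads, it went from 522 at 0 h to 2073 and 2485 at 72 h. It moved from rank 371 among the entries of barcode 1 to rank 85 and rank 67. The same entry in barcodes 2 to 5 had 666, 254, 432 and 120 CPM at 0 h, and 269, 116, 192 and 78.2 CPM at 72 h and dose 150. At dose 200 those barcodes had 169, 106, 164 and 84.5 CPM. Barcode 1 held 15.4% of all plantHSFA2 reads through this entry at 0 h and 70.3% and 79.9% at 72 h.

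Of the 81 combinations of an entry and a barcode of the 5 peptides with at least 20 reads at 0 h, 80 were below their 0 h share at 72 h at each dose. The exception, plantHSFA2 entry 2 in barcode 1, was 3.97-fold and 4.76-fold above its own, while the next highest stood at 0.649 and 0.701. Among the other wild-type controls 33 and 38 of 257 such combinations were above their 0 h share, and over the whole library 6.17% and 4.78% of 37360 were. The most similar other tag had 296 reads at 0 h and 5 at 72 h and dose 200, 2 of them in barcode 1. Whether the cells of this combination changed in a way unrelated to the peptide was not tested.

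The remaining entries of plantHSFA2 fell at both doses. Entry 1 had 41.6, 405, 213, 47 and 83.1 CPM in barcodes 1 to 5 at 0 h and 5.11, 74.9, 47.4, 23 and 21.6 CPM at 72 h and dose 150. Entry 4 had 103, 228, 85.1, 171 and 77.5 CPM at 0 h and 14.9, 59.4, 19.9, 51 and 9.43 CPM. In barcode 1, where entry 2 rose, entries 1 and 4 fell. Entry 3 was read almost entirely in barcode 4, with 96.5 CPM at 0 h and at most 4.21 in any other barcode, and stood at 8.5 CPM there at 72 h and dose 150 and at 7.42 at dose 200.

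As a whole plantHSFA2 did not pass the test at 72 h: -0.21 (SE 0.807), adjusted p = 0.804, at dose 150 and -0.15 (SE 0.823), adjusted p = 0.865, at dose 200, on the log2 scale. With the barcode as a block it was -0.98 (SE 0.456), adjusted p = 0.0605, and -1.28 (SE 0.214), adjusted p = 2.2e-09. With entry 2 of barcode 1 set to 0 in both groups, a choice made after seeing the data, it was -1.61 (SE 0.824), adjusted p = 0.0697, and -2.06 (SE 0.847), adjusted p = 0.0197. With all of barcode 1 left out it was -1.57 and -2.02, the latter with adjusted p = 0.0321. Without that entry in barcode 1, the mean share over the 5 barcodes was 3.06 and 4.17 times lower than at 0 h, and barcode 1 itself kept 0.136 and 0.114 of its 0 h share. The sign also depends on the scaling: with TMM factors plantHSFA2 was 1.44 higher at dose 150, adjusted p = 0.111, and 4.73 higher at dose 200, adjusted p = 0.000129. Over all peptides, TMM factors called 426 of 8624 higher at dose 150 and 898 of 8676 at dose 200, against 168 and 159 without them.

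Of its entries, entry 2 was not called at either dose, at 0.45 (SE 0.876), adjusted p = 0.627, and 0.59 (SE 0.859), adjusted p = 0.503. With the block it was -0.52 (SE 0.447), adjusted p = 0.274, and -0.7 (SE 0.229), adjusted p = 0.00242. With TMM factors entry 2 was called higher at both doses, by 2.1 (SE 0.924), adjusted p = 0.0377, and 5.44 (SE 1.04), adjusted p = 2.67e-05. Over all entries, TMM factors called 436 of 8703 higher at dose 150 and 906 of 8755 at dose 200, against 171 and 165 without them. These TMM fits keep barcode 1 of entry 2. In the fit without TMM factors or block, the other 3 entries were called lower. Their log2 changes were -2.20, -3.78 and -2.1 for entries 1, 3 and 4 at dose 150 and -2.98, -3.8 and -2.79 at dose 200.

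The doses were also compared directly at 72 h. hHSF1 and ESX had too few reads to be tested. Of the 3 peptides tested none was called, of 1467 over the library none was called in either direction, and none of the 3 passed at an unadjusted p of 0.05. DESeq2 gave a p-value for 2 of the 3 and called neither. The log2 difference of dose 200 from dose 150 was -1.6 (SE 0.784), adjusted p = 0.46, for EKLF TAD1, -1.25 (SE 0.66), adjusted p = 0.46, for KLF4 and 0.07 (SE 1.04), adjusted p = 0.976, for plantHSFA2. With the barcode as a block all 3 were lower at dose 200: EKLF TAD1 by -1.59 (SE 0.315), adjusted p = 4.74e-05, KLF4 by -1.21 (SE 0.218), adjusted p = 1.4e-05, and plantHSFA2 by -0.23 (SE 0.103), adjusted p = 0.0405. The median over all peptides tested was -0.94 without the block, and the block called 1113 of the 1467 lower and 136 higher. Of 5 entries tested, of 1486 in the library, none was called and none passed at an unadjusted p of 0.05. DESeq2 gave a p-value for 4 of the 5 and called none. With the block 4 were lower, beside 1119 lower and 141 higher of the 1486. In summed reads hHSF1 had 10 at dose 150 and 42 at dose 200, and ESX 0 and 11.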

How the data were processed

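Reads of 55 libraries (11 samples, 5 barcodes each) were used as deposited: whole-number counts per entry, not normalized, per the file headers and values. Cutadapt and STAR are named, without version or role, in the submitters' processing notes; how reads were assigned to entries is not given in the sources used here. All 55 count columns belong to a sample. The counts carry PCR reads without molecular identifiers, so intervals (exact binomial, 95%) and floors (3 reads over a group's 5 libraries) cover counting error only.

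Shares were computed per library. Differences were tested with edgeR 4.0.16 (quasi-likelihood, R 4.3.3) on all entries, and on reads summed per peptide, with a mean of at least 10 reads over the libraries compared, total-count scaling and Benjamini-Hochberg adjustment at 0.05. Only the compared groups entered a fit. The tests were checked on simulated counts, drawn without pairing of barcodes and with as many entries raised as lowered. That check does not cover the pairing or the mostly downward changes of these data. TMM factors, DESeq2 1.42.0, other count minimums, each barcode left out and the barcode number as a block were alternatives. Barcode numbers pair the libraries: deviations from group means correlated at 0.55 to 0.91 between libraries of the same number. Between different numbers the correlations were at most -0.11. Deviations from a group's mean cancel over its 5 barcodes, so negative values there are built in and are not evidence of pairing.

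All 5 peptides and 20 entries are named by rule. Members, lists and tests were chosen with earlier results of these data known. The minimum of 20 reads at 0 h for a combination, the scope of the search for outlying libraries and the fit without plantHSFA2 entry 2 of barcode 1 were chosen after the counts had been seen.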

Additional observations from a re-analysis of the deposited data

Results flagged for a closer look

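Libraries that stood apart from the other 4 of their group were sought with Dixon's test. It was run on 55 sets of peptide shares and 44 sets of plantHSFA2 entry values, and 17 were found. The threshold flags about 1 in 20 independent sets by chance. These sets are not independent, since peptide shares contain the entries and the same combination recurs over groups. The 17 can therefore not be set against that rate. EKLF TAD1 in barcode 4 at dose 150 and 24 h was low, at 0.00514% of reads. plantHSFA2 in barcode 1 at 72 h was high, at 0.209% at dose 150 and 0.25% at dose 200. Its entry 2 in barcode 1 was high at 2073 CPM at dose 150 and 72 h, 1940 CPM at dose 200 and 48 h and 2485 CPM at dose 200 and 72 h. Entry 3 of plantHSFA2 was high in barcode 4 in all 11 groups. Untreated it stood there at 96.5, 110, 49.7 CPM at 0, 12 and 24 h. At dose 150 it stood at 85.6, 101, 29.4 and 8.5 CPM at 12, 24, 48 and 72 h, and at dose 200 at 63.1, 146, 34.1 and 7.42 CPM.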

How the results depend on the processing

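With 5 libraries a group and as few as 0 reads for a peptide, depth limits hHSF1 and ESX most. Of the log2 changes recomputed for peptides and entries, 1054 kept their direction and side of the threshold, 55 lost a call, 42 gained one and 56 changed sign; a change of sign near 0 is part of these. The cause of the changes was not tested, apart from smaller numbers of entries tested under stricter minimums.

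At 24 h untreated against 0 h, 0 peptides were called with TMM factors, 1 with DESeq2, 0 with a minimum mean of 50 reads and 4 with the barcode as a replicate block, against 2. Entries called were 0 with TMM factors, 1 with DESeq2, 4 with no minimum, 0 with a minimum of 50 and 11 with the replicate block, against 2. At dose 150 against untreated at 24 h, peptides called were 2 with no minimum, 0 with a minimum of 50 and 3 with the block, against 1, and entries called were 2 with DESeq2, 3 with no minimum and 6 with the block, against 0. At dose 200 against untreated, the block called 3 peptides and 4 entries, against 0. At 72 h a minimum of 50 left 9 of 10 tested entries called at each dose, against 17 of 18. TMM factors at dose 200 left 1 peptide and 1 entry, both higher, beside 898 of 8676 peptides and 906 of 8755 entries called higher over the library. Between the doses at 72 h the block called 3 peptides and 4 entries, against 0. The block changed no other call of a peptide than those given here or in the text above.

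With each barcode left out in turn, calls ranged from 0 to 1 peptides and 1 to 2 entries at 24 h untreated, 0 to 1 peptides and 0 to 1 entries at dose 150 against untreated, and 0 at dose 200 against untreated. At 72 h they ranged from 4 to 4 peptides and 14 to 17 entries at dose 150, from 4 to 5 peptides and 16 to 18 entries at dose 200, and were 0 between the doses.

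Changes of sign, as log2 values, were as follows. At 24 h untreated the EKLF TAD1 peptide was 1.13 with TMM factors and 1.0 with DESeq2, its entries 1 to 4 were 1.02, 1.25, 1.18 and 1.02, and 0.85, 1.04, 1.08 and 0.94. plantHSFA2 was 0.96 and 0.87, its entries 0.7, 1.05, 0.26 and 0.98 with TMM factors, and entries 1, 2 and 4 were 0.61, 0.96 and 0.89 with DESeq2. At dose 150 against untreated, EKLF TAD1 entry 1 was 0.02 with TMM factors and -0.49 to 0.38 with a barcode left out. EKLF TAD1 entry 3 was -0.02 with DESeq2, -0.17 with the block and -0.3 to 0.27 with a barcode left out. plantHSFA2 entry 3 was -0.62 with the block, and -0.48 at dose 200. At dose 200 against untreated, ESX was -0.5 to 0.18 and hHSF1 -0.23 to 0.31 with a barcode left out. At 72 h and dose 150, plantHSFA2 was 1.44 with TMM factors, 1.16 with DESeq2 and -1.57 without barcode 1 to 0.24 without barcode 2. Its entry 2 was -0.52 with the block, -1.17 with entry 2 of barcode 1 set to 0, and -1.17 without barcode 1 to 0.89 without barcode 2. At dose 200, plantHSFA2 was 4.73 with TMM factors and -2.02 without barcode 1 to 0.4 without barcode 2. Entries 1, 3 and 4 were 1.83, 0.28 and 1.68 with TMM factors, and entry 2 was -0.7 with the block, -1.49 with that entry set to 0 in barcode 1, and -1.49 without barcode 1 to 1.1 without barcode 2. Between the doses, plantHSFA2 was -0.23 with the block and -0.45 with entry 2 of barcode 1 set to 0, and -0.45 without barcode 1 to 0.16 without barcode 2. Its entry 2 was -0.13 with the block, -0.32 with that entry set to 0, and -0.32 to 0.21 with a barcode left out, and entries 1 and 4 were 0.04 and 0.15 with TMM factors and 0.05 and 0.17 with DESeq2.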
